A study of Mus musculus with 8 samples.

Results

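Among the 25010 genes measured in liver RNA, 10 genes of general macrophage function and efferocytosis, the uptake of dead cells, were followed in mice lacking both liver X receptors. They were listed by name for what their products do, no measured value enters the rule, and they comprise Csf1r, Spi1, Adgre1, Cd68, Lyz2, C1qa, C1qb, C1qc, Mertk and Axl. All 10 were in the expression table, and all 10 reached the mean level over the 4 livers, 10 normalized counts, required for testing. RNA-Seq had been performed on the left liver lobe of 2 wild-type (WT) mice and 2 mice homozygous for loss of LXRα (gene Nr1h3) and LXRβ (gene Nr1h2), termed LXRDKO. All 4 mice were 8 weeks old, on the C57BL/6 background, fed standard chow and fasted for 4 to 6 hours before they were killed. The deletion is a whole-body one, so that hepatocytes, macrophages and all other liver cells lack the receptors. The sex of the mice is not given in the sources used here. Each library comes from 1 mouse, and ATAC-Seq of the same livers was not analysed here.

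The 4 libraries held between 55772659 and 72842744 reads on genes, and RNA of both deleted receptors was down-regulated in the LXRDKO pair. Nr1h3 reached 5785 and 5322 counts in the WT pair against 1712 and 1826 in the LXRDKO pair (log2 fold change −1.65 ± 0.10 (SE), adjusted P = 0.015, limma). Nr1h2 reached 2987 and 3110 counts in WT livers against 925 and 1003 in LXRDKO livers (log2 fold change −1.66 ± 0.10 (SE), adjusted P = 0.015, limma). Counts given here are normalized counts, that is, the number of reads on a gene divided by a size factor of its library. Values can therefore be compared between livers, but not between genes of different length.

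Macrophages that settle in tissues depend on signaling through the receptor tyrosine kinase Csf1r and on the transcription factor PU.1, the product of Spi1. In the liver most of them are Kupffer cells, which sit in the sinusoids and clear debris, microbes and dying cells from the blood. Efferocytosis begins when phosphatidylserine on a dying cell is recognized, either directly or through bridging proteins such as Gas6 and protein S that bind the receptor kinases Mertk and Axl, or through complement C1q. The engulfed cell is then degraded in lysosomes, and its cholesterol is a known source of ligands for LXR.

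C1qa, C1qb and C1qc encode the A, B and C chains of C1q and lie in tandem on the minus strand of chromosome 4 (GRCm38, GENCODE M21). C1qb occupies bases 136880129 to 136886187, C1qc 136889804 to 136893065 and C1qa 136895917 to 136898803, so that the cluster spans 18.7 kb with gaps of 3.6 and 2.9 kb. RefSeq promoter windows (GRCm38.p6, from 250 bases before to 50 bases after the start) were in the table used for 6 of the 10 genes, namely Axl, C1qb, C1qc, Cd68, Lyz2 and Mertk. C1qb and C1qc are shown as neighbors in the C1q cluster, and Axl because its window also holds the core letters of a PU.1 site, GAGGAAG. Capitals mark that core, which is read on the opposite strand as CTTCCTC. The windows are chr4:136886151-136886450 for C1qb, chr4:136892865-136893164 for C1qc and chr7:25788684-25788983 for Axl, all on the minus strand.
C1qb: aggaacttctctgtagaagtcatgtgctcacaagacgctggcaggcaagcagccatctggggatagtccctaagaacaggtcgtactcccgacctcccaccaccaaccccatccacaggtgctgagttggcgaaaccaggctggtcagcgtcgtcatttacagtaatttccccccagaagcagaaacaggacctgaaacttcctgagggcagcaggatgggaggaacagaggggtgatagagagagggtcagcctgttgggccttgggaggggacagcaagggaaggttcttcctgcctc
C1qc: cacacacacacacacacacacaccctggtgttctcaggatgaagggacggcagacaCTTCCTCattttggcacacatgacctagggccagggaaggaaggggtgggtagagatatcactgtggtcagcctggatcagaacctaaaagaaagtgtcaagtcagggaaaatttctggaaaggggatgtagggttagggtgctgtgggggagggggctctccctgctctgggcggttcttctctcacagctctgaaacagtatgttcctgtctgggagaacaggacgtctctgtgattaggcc
Axl: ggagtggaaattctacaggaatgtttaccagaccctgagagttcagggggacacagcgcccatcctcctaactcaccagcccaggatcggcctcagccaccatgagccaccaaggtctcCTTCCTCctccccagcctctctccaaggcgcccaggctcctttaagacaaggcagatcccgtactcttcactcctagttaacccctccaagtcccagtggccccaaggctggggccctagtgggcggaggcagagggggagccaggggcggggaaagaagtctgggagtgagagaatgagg

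In all, 6 motifs were searched on both strands of these windows, and no matches of different motifs overlapped. GAGGAAG was in 2 of the 6 windows, starting 194 bases before the C1qc start and 131 bases before the Axl start, against 13.6% of 32851 promoters of the same length. The nuclear receptor motif AGGTCA was in 1 of 6, that of C1qc, against 16.3% of all promoters. A direct repeat of AGGTCA with a spacing of 4 bases, the type of element that LXR binds with RXR, was in 0 of 6 and in 0.015% of all promoters. Only the exact letters were searched, in short windows, and they are rare in any promoter. The 0 of 6 thus cannot show that these genes lack LXR elements. The MAF motif TGCTGA was in 2 of 6, C1qb and Lyz2, against 19.5% of promoters, and the AP-1 site TGANTCA was in 1 of 6, Cd68, against 7.81%. The TATA box TATAAA was in 0 of 6 and in 13.6% of all promoters.

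None of the 10 genes passed the test between genotypes. limma on log2 values called 0 of 10 at an adjusted P below 0.05, where it called 0.321% of the 15578 genes tested, 0.186% down-regulated and 0.135% up-regulated. DESeq2 on the reads recovered from the table also called 0 of 10, against 3.59% of all genes with an adjusted P value, 2.03% down-regulated and 1.56% up-regulated. edgeR called 0 of 10, against 0.311%. Before adjustment, 3 of the 10 had a limma P below 0.05, Lyz2, Adgre1 and Mertk, against 13.3% of all genes tested. The same 3 had groups that did not overlap. The LXRDKO pair lay wholly below the WT pair for 2 of 10, Adgre1 and Mertk (23.0% of all genes tested), and wholly above it for 1 of 10, Lyz2 (21.7%). With 1 liver left out, groups separate more easily. The count was then 5 of 10 without WT replicate 1 (73.0% of all genes tested) or WT replicate 2 (73.3%), and 8 of 10 without LXRDKO replicate 1 (72.3%) or LXRDKO replicate 2 (70.9%). The median log2 fold change of the 10 genes was −0.02, and that of all genes tested was −0.0046. In bulk liver, fewer macrophages and less RNA per macrophage cannot be told apart, and some of these genes are also expressed by other liver cells.

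**Figure D1:**
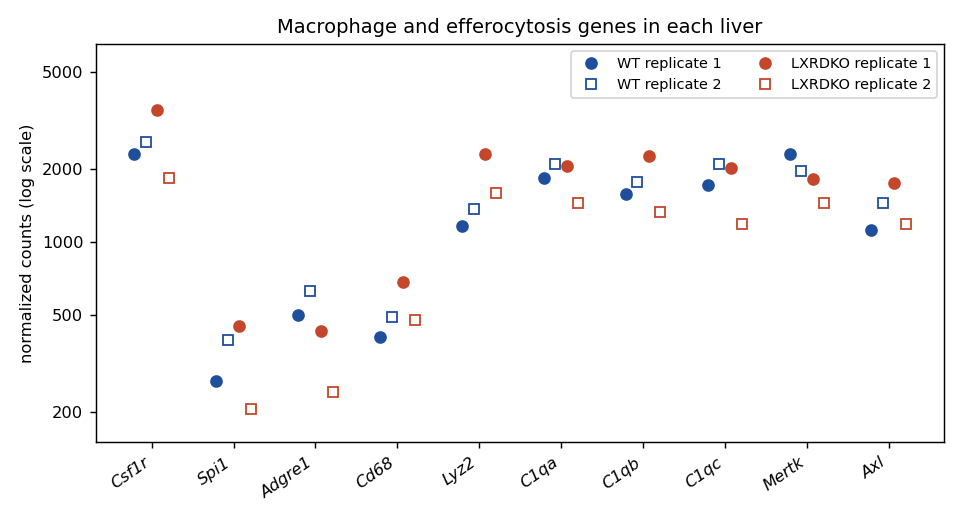
Normalized counts (log scale) of the 10 genes in each liver, 1 point per liver, with WT in blue, LXRDKO in red, replicate 1 as filled circles and replicate 2 as open squares. LXRDKO replicate 1 lies above LXRDKO replicate 2 for 10 of 10 genes, and only Lyz2, Adgre1 and Mertk have groups that do not overlap.

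Csf1r encodes the receptor for CSF1 and IL-34 that macrophages need to survive. It reached 2291.5 and 2578 counts in the WT pair against 3477 and 1826 in the LXRDKO pair. The LXRDKO livers were the highest and the lowest of the 4, on either side of both WT livers. The log2 fold change was 0.05 ± 0.29 (SE), with a 95% interval from −0.68 to 0.78 and an adjusted P of 0.962 (limma). That interval spans folds from 0.625 to 1.72. Csf1r shares 873 bp of exon sequence with Hmgxb3 on the opposite strand, which had 1272 to 1314 normalized counts per liver. The strand setting used for counting is not given in the sources used here, so reads from the shared bases may belong to either gene.

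Spi1 showed the same arrangement at a lower count. It reached 268 and 395 counts in the WT pair against 452 and 206 in the LXRDKO pair. Again the LXRDKO livers held both extremes. Its log2 fold change was −0.09 ± 0.40 (SE), and its 95% interval, −1.09 to 0.91, was the widest of the 10 (adjusted P = 0.952, limma). Spi1 lies on chromosome 2 from 91082390 to 91115756, 68.3 kb from Nr1h3. Of 10 other genes listed beside Nr1h3, 8 were tested, 0 were called by limma, DESeq2 or edgeR (0 at an unadjusted P below 0.05), and their median log2 fold change was 0.07.

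Adgre1 encodes F4/80, the surface receptor by which mouse macrophages are commonly identified. It reached 499.6 and 628 counts in the WT pair against 430.0 and 242 in the LXRDKO pair. The pairs did not overlap, LXRDKO being lower, but LXRDKO replicate 1 was nearer to the WT replicate 1 liver than to its own replicate. The log2 fold change of −0.79 ± 0.30 (SE) was the lowest of the 10, with a 95% interval from −1.53 to −0.06 and an adjusted P of 0.344 (limma). Leaving out single livers moved it between −1.21 and −0.38.

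Cd68 encodes a heavily glycosylated protein of macrophage lysosomes and endosomes. It reached 407 and 492 counts in the WT pair against 683 and 478 in the LXRDKO pair. LXRDKO replicate 1 was above all other livers, and LXRDKO replicate 2 lay between the WT livers. The fitted log2 fold change was 0.35 ± 0.21 (SE), with a 95% interval from −0.18 to 0.88 (adjusted P = 0.559, limma).

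Lyz2 encodes the lysozyme M of macrophages and other myeloid cells, which cuts bacterial cell walls. It reached 1159 and 1363 counts in the WT pair against 2289 and 1580.1 in the LXRDKO pair. The LXRDKO pair was higher without overlap. Its log2 fold change was 0.60 ± 0.20 (SE), a fold of 1.51 with a 95% interval from 1.08 to 2.12, and the adjusted P was 0.303 (limma) and 0.0982 (DESeq2). Its neighbor and near copy Lyz1, a lysozyme of Paneth cells, had 3.22 to 7.59 normalized counts in the same livers, and reads that fit both copies may have been assigned to either.

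The C1q chains, which assemble into 1 complex and are made largely by macrophages, had log2 fold changes of different sign, none of which passed the test. C1qa reached 1833 and 2089.7 counts in the WT pair against 2051 and 1439 in the LXRDKO pair. C1qb reached 1576 and 1759.5 counts in WT livers against 2254 and 1331 in LXRDKO livers. C1qc reached 1707.5 and 2084 counts in WT livers against 2010.4 and 1186 in LXRDKO livers. For each chain LXRDKO replicate 2 was the lowest of the 4 livers, and the groups overlapped because LXRDKO replicate 1 was above at least 1 WT liver. The fitted log2 fold change was −0.19 ± 0.19 (SE, adjusted P = 0.737, limma) for C1qa, with a 95% interval from −0.65 to 0.27. For C1qb it was 0.06 ± 0.25 (SE, adjusted P = 0.952, limma), with an interval from −0.56 to 0.67. For C1qc it was −0.29 ± 0.26 (SE, adjusted P = 0.705, limma), with an interval from −0.93 to 0.35. Set against each other within a liver, the chains varied less than they did between livers. C1qc was 93.2, 99.7, 98.0 and 82.4 per 100 counts of C1qa in WT replicates 1 and 2 and LXRDKO replicates 1 and 2, and C1qb was 86.0, 84.2, 109.9 and 92.5 per 100. The pairs overlapped for C1qc, and LXRDKO was higher without overlap for C1qb.

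Mertk encodes the receptor kinase through which macrophages take up dying cells, and it is also present on sinusoidal endothelial cells. It reached 2293 and 1961.5 counts in the WT pair against 1806 and 1448 in the LXRDKO pair. The LXRDKO pair was lower without overlap, by a margin smaller than the difference between the WT livers. Its log2 fold change was −0.39 ± 0.15 (SE), a fold of 0.763 with a 95% interval from 0.593 to 0.981 (adjusted P = 0.346, limma). Mertk was the 1 gene of the 10 that was higher in WT replicate 1 than in WT replicate 2. Mertk lies on chromosome 2, 37.5 Mb from Nr1h3.

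Axl encodes the related receptor kinase, which binds Gas6 and is found on macrophages, endothelial and stellate cells. It reached 1119 and 1437 counts in the WT pair against 1739.9 and 1180.2 in the LXRDKO pair. LXRDKO replicate 1 was the highest liver and LXRDKO replicate 2 lay between the WT livers. The fitted log2 fold change was 0.18 ± 0.22 (SE), with a 95% interval from −0.37 to 0.72 (adjusted P = 0.801, limma). Counts of Mertk per 100 counts of Axl were 205 and 137 in WT and 104 and 123 in LXRDKO, lower without overlap. Tyro3, the third receptor of the family, had only 19.3 to 29.4 normalized counts.

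**Figure D2:**
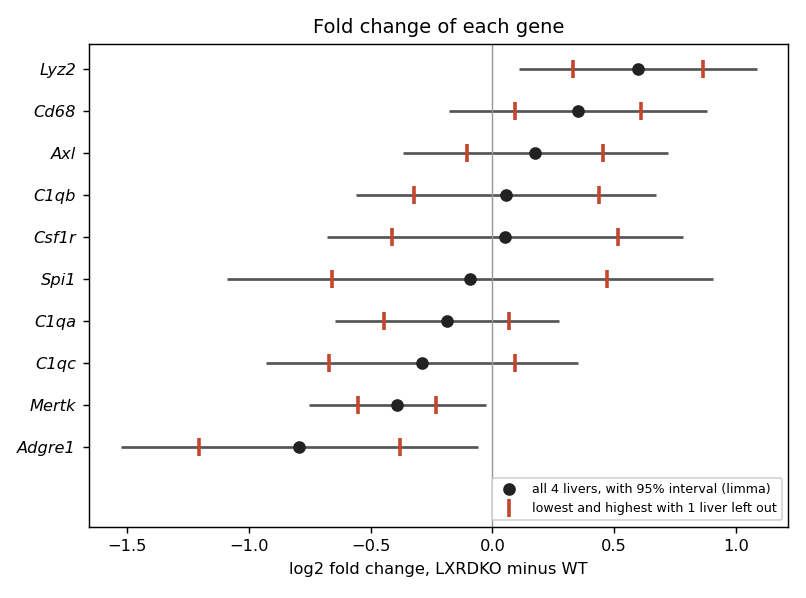
Log2 fold change (LXRDKO minus WT) of each gene as black points with 95% intervals from limma on 4 livers, and red ticks at the lowest and highest value when 1 liver is left out. The intervals of Lyz2, Mertk and Adgre1 lie to one side of 0 before adjustment for the 15578 genes tested, and the red ticks of 6 genes fall on both sides of 0.

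The livers of 1 genotype differed in a shared way across these genes. LXRDKO replicate 1 was above LXRDKO replicate 2 for 10 of 10 genes, with a median log2 difference (replicate 2 minus 1) of −0.66, whereas 49.7% of all genes tested were higher in replicate 1. WT replicate 2 was above WT replicate 1 for 9 of 10, with a median log2 difference of 0.25, against 49.5% of all genes. The 20 pan-leukocyte and myeloid genes followed the same order in 19 of 20 and 18 of 20 cases, with medians of −0.65 and 0.44. Their summed level was 17593 and 20445 normalized counts for the WT livers, 18505 and 14455 for LXRDKO. Those sums lean on Lcp1 (6379 and 6035 in WT, 5694 and 5053 in LXRDKO) and Mpeg1 (4633 and 6256, 2660 and 2639). Both had negative fold changes, whereas 15 of the 20 genes had positive and 5 negative ones, so the sums do not give the direction of the list. Whether the number of leukocytes in each piece of tissue set the level of the 10 genes was not tested. The choice of LXRDKO liver turned the direction of the median, which was −0.43 when LXRDKO replicate 1 was omitted and 0.45 when LXRDKO replicate 2 was omitted.

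Levels relative to Csf1r were then compared within each liver, where the scaling of the library does not enter. In all, 18 ratios were computed after the values had been seen, and with 2 livers against 2 an exact permutation test cannot give a P below 0.33, so they are a description. Relative to Csf1r, 3 of the 9 other genes were lower in the LXRDKO pair without overlap, 2 were higher and 4 overlapped. Among the other genes tested, 7.38% were lower and 6.12% higher relative to Csf1r without overlap. That share is not a like background. Csf1r itself differed widely between the LXRDKO livers, and division by it spreads genes that do not vary with it. The 9 genes varied in the same order as Csf1r between those livers, so fewer of them are spread in this way.

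Adgre1 had 21.8 and 24.4 counts per 100 counts of Csf1r in WT and 12.4 and 13.3 in LXRDKO. The LXRDKO livers, far apart in Adgre1 itself, were thus close to each other in this ratio and separate from WT. C1qa reached 80.0 and 81.1 counts in WT livers against 59.0 and 78.8 in LXRDKO livers, and C1qc reached 74.5 and 80.8 counts in WT livers against 57.8 and 64.9 in LXRDKO livers. Both chains were lower without overlap, C1qa only narrowly. Lyz2 reached 50.6 and 52.9 counts in WT livers against 65.8 and 86.6 in LXRDKO livers, and Cd68 reached 17.8 and 19.1 counts in WT livers against 19.7 and 26.2 in LXRDKO livers. Both were higher without overlap, Cd68 only narrowly.

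The genes that overlapped were Mertk, Axl, Spi1 and C1qb. Mertk had 100.05 and 76.1 counts per 100 of Csf1r in WT and 52.0 and 79.3 in LXRDKO, and Axl reached 48.8 and 55.7 counts in WT livers against 50.0 and 64.7 in LXRDKO livers. Spi1 reached 11.7 and 15.3 counts in WT livers against 13.0 and 11.3 in LXRDKO livers. C1qb had the smallest relative range of the 9, with 68.8 and 68.3 in WT and 64.8 and 72.9 in LXRDKO. Lyz2 per 100 counts of Adgre1, with Csf1r left out, was 232 and 217 in WT and 532 and 652 in LXRDKO. Among the general macrophage genes, Lyz2 had the highest fold change and Adgre1 the lowest. In the counts themselves the LXRDKO pair was already wholly above WT for Lyz2 and wholly below it for Adgre1. Their ratio was therefore bound to separate the groups and is not a further test.

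A similar description came from scaling each liver to its 20 pan-leukocyte and myeloid genes, also chosen after the data were seen. Under that scaling the LXRDKO pair lay wholly below the WT pair for 5 of the 10 genes, Adgre1, C1qa, C1qc, Mertk and Axl, against 19.9% of all genes, and wholly above it for 2 of 10, Cd68 and Lyz2, against 4.95%. The separation was narrow for Axl, at 1330.2 in the higher LXRDKO liver against 1339 in the lower WT liver, and for Cd68, at 522 in the lower LXRDKO liver against 521 in the higher WT liver. The scaling itself moved the median log2 fold change of all genes to −0.26, and limma called 0 of the 10. That 0 says little, since the scaling carries the variation of the reference genes between livers into every gene. The shares over all genes are again not a like background, since the reference genes varied between livers much as the 10 genes did.

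**Figure D3:**
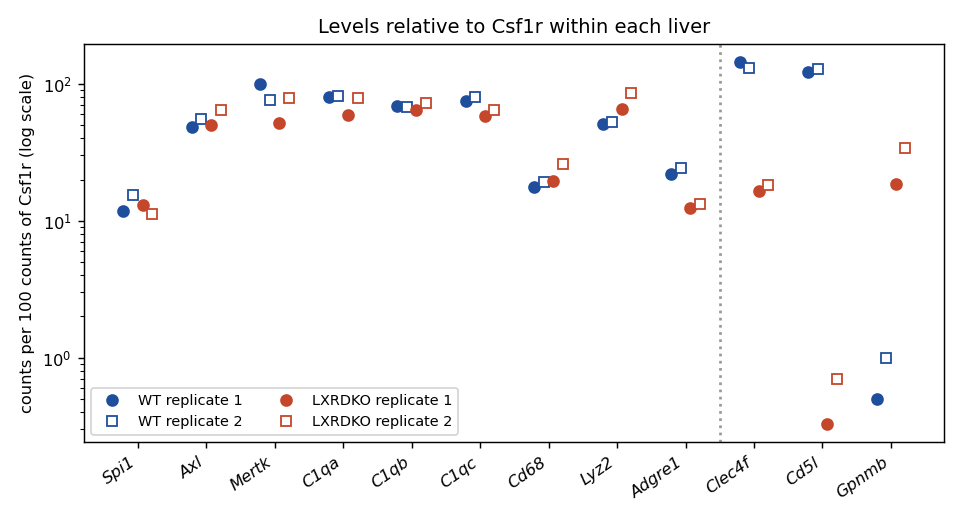
Counts of each gene per 100 counts of Csf1r in the same liver (log scale), 1 point per liver, with WT in blue, LXRDKO in red, replicate 1 as filled circles and replicate 2 as open squares. Left of the dotted line are the 9 other general macrophage genes, which stay between 11.3 and 100.05 in all livers, and right of it are Clec4f, Cd5l and Gpnmb, whose groups are far apart.

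Compared per kilobase of exon in WT livers, C1qa was the highest of the 10 at 1886 ± 175 normalized counts per kb (SD, n = 2) and Spi1 the lowest at 123 ± 33.2 (SD, n = 2). Between them on this scale lay C1qb at 1533 ± 119, Lyz2 at 958 ± 109.8, Mertk at 491 ± 54.0, Csf1r at 422 ± 35.1, Cd68 at 358 ± 47.9, Axl at 254 ± 44.7 and Adgre1 at 174 ± 28.1 (SD, n = 2 for each). The WT livers of neighbors in this order did not overlap, but the gap exceeded both SDs only between C1qb and Lyz2 and between Lyz2 and Mertk. With the longest transcript of each gene in place of all annotated exons, Csf1r (518) stood above Mertk (494). The level of C1qc was 982 with all exons and 1576 with its longest transcript, so its place was uncertain.

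The other genes of efferocytosis did not pass the limma test either. Of 14 receptors tested, 0 were called by limma (4 at an unadjusted P below 0.05) and 1 by edgeR, and their median log2 fold change was −0.15. DESeq2 called 2 of them down-regulated and 2 up-regulated. Timd4, a phosphatidylserine receptor of resident macrophages, reached 266 and 288 counts in the WT pair against 4.75 and 0 in the LXRDKO pair (log2 fold change −6.86 ± 0.82 (SE), adjusted P = 0.060 with limma, 0.038 with edgeR and 4.6e-18 with DESeq2). That fold depends on the pseudocount, since 1 LXRDKO liver held no read. Timd4 was at 11.6 and 11.2 per 100 counts of Csf1r in WT and 0.137 and 0 in LXRDKO, and at 11.6, 14.7, 0.263 and 0 per 100 counts of Mertk. Cd36, a scavenger receptor also found on hepatocytes and endothelium, reached 2727 and 3772 counts in WT livers against 1130 and 1761 in LXRDKO livers (log2 fold change −1.18 ± 0.25 (SE), adjusted P = 0.155 with limma and 0.00025 with DESeq2). Itgb3, a subunit of the integrin that binds Mfge8, had a log2 fold change of 0.84 and Havcr2 (TIM-3) of 1.98, each with an adjusted P of 0.037 with DESeq2 and of 0.187 and 0.188 with limma.

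The ligands of Mertk and Axl did not pass the test. Gas6 reached 1972 and 2718 counts in the WT pair against 2451 and 3234 in the LXRDKO pair (log2 fold change 0.28 ± 0.20 (SE), adjusted P = 0.627, limma). Pros1, which encodes protein S, reached 4802 and 4989 counts in WT livers against 5606 and 6402 in LXRDKO livers (log2 fold change 0.29 ± 0.10 (SE), adjusted P = 0.318, limma). Of the 6 bridging molecules tested, 0 were called by limma, DESeq2 or edgeR (3 at an unadjusted P below 0.05) and their median was 0.39, with Thbs1 (log2 fold change 0.81, adjusted P = 0.300, limma) and Anxa1 (0.76, adjusted P = 0.303, limma) having the smallest P values.

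Of 18 engulfment and phagosome genes, from the Elmo and Dock proteins that activate Rac to the LC3 genes, 0 were called by limma, DESeq2 or edgeR (0 at an unadjusted P below 0.05), 9 had negative and 9 positive fold changes, and the median was 0.01. Map1lc3b (log2 fold change 0.18) and Rubcn (−0.24) had the smallest P values of that list. A further list held 8 partners of C1q, most of them in the classical complement pathway and made by hepatocytes. Of these, 0 were called by limma, DESeq2 or edgeR (0 at an unadjusted P below 0.05) and the median was −0.06. C1s1 (0.29, adjusted P = 0.409, limma) and C4b (−0.26, adjusted P = 0.534, limma) had the smallest P values there.

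Around Csf1r, 0 of 8 ligands and related receptors were called by limma (3 at an unadjusted P below 0.05). DESeq2 called Il34, the second ligand of Csf1r, which reached 124 and 116 counts in the WT pair against 243 and 241 in the LXRDKO pair (log2 fold change 1.00 ± 0.18 (SE), adjusted P = 0.00999 with DESeq2 and 0.127 with limma). Csf1, the first ligand, reached 672 and 897 counts in WT livers against 726 and 904 in LXRDKO livers. Kit, a related receptor kinase, had a log2 fold change of −0.76 (adjusted P = 0.244, limma). Beside Spi1, 0 of 15 myeloid transcription factors were called by limma, DESeq2 or edgeR (2 at an unadjusted P below 0.05), with a median of 0.06. Bach1 (−0.35) and Cebpb (0.31) had the smallest P values of these.

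Beside Cd68 and Lyz2, 0 of 11 lysosomal and granule genes were called by limma (6 at an unadjusted P below 0.05), and the median was 0.04. DESeq2 called 1, Lipa, the lysosomal acid lipase that frees cholesterol from engulfed lipids (log2 fold change −0.69, adjusted P = 0.00059 with DESeq2 and 0.127 with limma). Cd63 had a log2 fold change of 1.25 (adjusted P = 0.242, limma). Of the 20 pan-leukocyte and myeloid genes, 0 were called by limma (4 at an unadjusted P below 0.05) and the median was 0.26. DESeq2 called Mpeg1, a pore-forming protein of phagocytes (log2 fold change −1.02), and Cx3cr1, a chemokine receptor of monocytes (2.07).

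Genes of Kupffer cell identity included several that were down-regulated. limma called 6 of 16 down-regulated and 0 up-regulated, against 0.186% and 0.135% of all genes tested. DESeq2 called 10 down-regulated, against 2.03%, and the median log2 fold change was −1.48. The list was not uniform, with 12 negative and 4 positive fold changes, the highest at 0.84. These values were known from earlier work on the same livers and are given only for comparison. Clec4f, a lectin found on Kupffer cells, reached 3309 and 3369 counts in the WT pair against 575 and 333 in the LXRDKO pair (log2 fold change −2.93, adjusted P = 0.027, limma). Per 100 counts of Csf1r that was 144 and 131 in WT and 16.5 and 18.3 in LXRDKO. Cd5l, a secreted LXR target that promotes macrophage survival, fell by 7.85 on the log2 scale (adjusted P = 0.00052, limma), Cd163, the hemoglobin scavenger receptor, fell by 4.87 (adjusted P = 0.024, limma) and Cdh5, which endothelial cells also express, fell by 1.28 (adjusted P = 0.025, limma). Cd5l was at 121 and 128 per 100 counts of Csf1r in WT and 0.328 and 0.705 in LXRDKO. Nr1h3 itself, a deleted gene, is on that list and is counted among the 6 called by limma and the 10 called by DESeq2. Timd4, given above with the efferocytosis receptors, is on the Kupffer cell list too and is among the 10 called by DESeq2.

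Of 12 genes of monocyte-derived and lipid-associated macrophages, limma called 1 up-regulated and 0 down-regulated, DESeq2 called 3 up-regulated and 2 down-regulated, and the median was 0.99. At an unadjusted P below 0.05, limma had 7 with positive and 2 with negative fold changes. The gene called was Gpnmb, a glycoprotein of lipid-laden macrophages, which reached 11.4 and 25.5 counts in the WT pair against 645 and 622 in the LXRDKO pair (log2 fold change 5.13 ± 0.39 (SE), adjusted P = 0.024, limma). Per 100 counts of Csf1r, Gpnmb was at 0.498 and 0.988 in WT and 18.5 and 34.1 in LXRDKO. Lpl (−2.48) and Fabp5 (−2.70), lipid-handling genes of the same list, had adjusted P values of 0.111 and 0.127 with limma and were called down-regulated by DESeq2. Beside Gpnmb, DESeq2 called Cx3cr1 (2.07, adjusted P = 0.010) and Trem2, a lipid-sensing receptor (2.04, adjusted P = 0.033), up-regulated, with adjusted P values of 0.233 and 0.235 with limma. Cx3cr1 is shared with the pan-leukocyte list, and Spp1 is also a cholangiocyte marker. None of these genes entered the choice of the 10, and the difference between the lists was not tested.

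**Figure D4:**
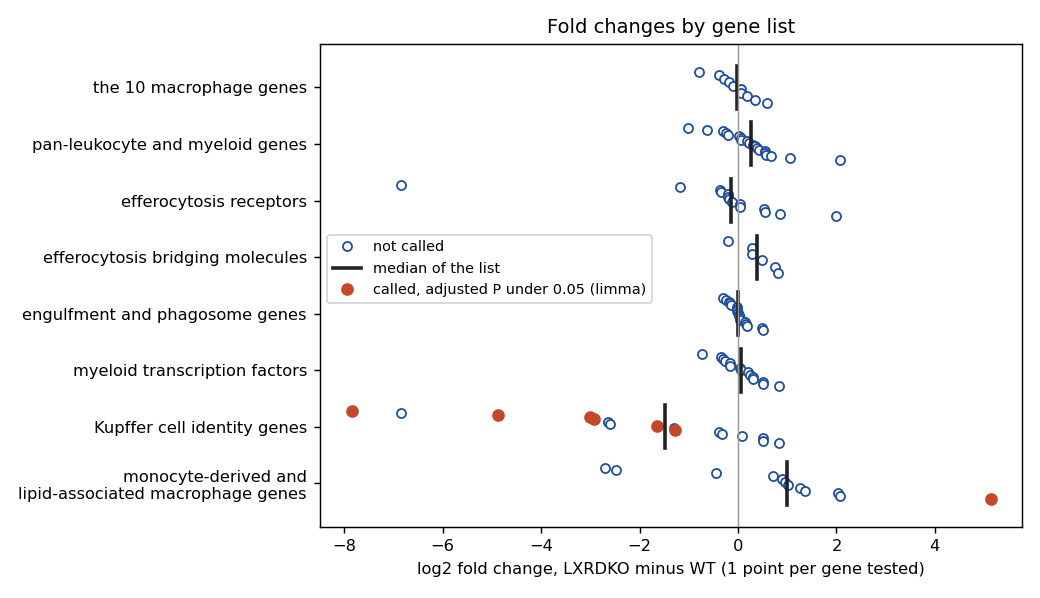
Log2 fold change (LXRDKO minus WT) of every gene tested in 8 gene lists, 1 point per gene, with black bars at list medians and filled red points for genes called by limma. The 10 macrophage genes lie between −0.79 and 0.60 with 0 called, whereas the Kupffer cell identity genes reach −7.85 with 6 called, the deleted Nr1h3 among them.

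Markers of the other cells of liver were read beside these values, and their part in the levels of the 10 genes was not tested. Of 9 sinusoidal endothelial markers, 8 had negative fold changes and 1 was called, Kdr, the VEGF receptor (log2 fold change −1.17, adjusted P = 0.0498, limma), with Dnase1l3 at −0.82. At an unadjusted P below 0.05 limma had 6 of the 9, all with negative fold changes, and DESeq2 called 2 down-regulated. The summed level of the 9 markers was 15354 to 17903 normalized counts in WT and 10073 to 12931 in LXRDKO. All 10 stellate cell markers had positive fold changes with 0 called by limma (5 at an unadjusted P below 0.05) and 2 by DESeq2, with the smallest P values for Dcn (log2 fold change 0.67) and Reln (0.50), and summed to 20623 to 24072 in WT and 28789 to 31406 in LXRDKO. All 8 cholangiocyte markers had positive fold changes, with 0 called by limma (3 at an unadjusted P below 0.05) and 1 by DESeq2. Their median was 0.83, and the smallest P values were those of Epcam (log2 fold change 1.25) and Krt7 (0.84). They summed to 3463 to 4954 in WT and 6091 to 6936 in LXRDKO. Those sums lean on Spp1 (1433 and 2907 in WT, 3658 and 4300 in LXRDKO), which is also on the lipid-associated macrophage list. Hepatocyte markers had a median of 0.17 with 0 of 8 called by limma (2 at an unadjusted P below 0.05) and 2 by DESeq2, with the smallest P values for Hnf4a (log2 fold change 0.60) and Tat (0.65). Their sums were 6459800 to 7524100 in WT and 6294300 to 6848700 in LXRDKO.

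Marker RNA of the other leukocytes examined summed to at most 742 normalized counts per list in any liver, and the number of such cells was not measured. Of 10 neutrophil markers 2 passed the filter, S100a9 (log2 fold change 0.26) and Csf3r (0.00), and the list summed to 106 to 138 normalized counts in WT and 110 to 155 in LXRDKO. Mpo had no read in WT replicate 1 and LXRDKO replicate 1. T and NK cell markers summed to 262 to 357 in WT and 263 to 346 in LXRDKO, with the smallest P values for Cd3e (log2 fold change −0.96) and Cd3g (−0.89). Of the 9 tested, 7 had negative and 2 positive fold changes, with a median of −0.27 and a highest value of 0.78. Dendritic cell markers summed to 679 to 742 and 594 to 665, with the smallest P values for Ccr7 (log2 fold change −1.20) and Zbtb46 (−0.29). Of the 8 tested, 5 had negative and 3 positive fold changes, with a median of −0.12 and a highest value of 0.39. The 7 proliferation genes had positive fold changes, with a median of 0.94 and sums of 1008 to 1479 and 1819 to 2093, with the smallest P values for Mki67 (log2 fold change 1.24) and Birc5 (0.54). limma and DESeq2 called 0 genes of these lists, and at an unadjusted P below 0.05 limma had 0 neutrophil, 1 T and NK cell, 0 dendritic cell and 3 proliferation genes.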

How the data were processed

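RNA-Seq covered 4 livers (2 WT and 2 LXRDKO), made with KAPA Stranded mRNA libraries and single-end reads of 50 bp. Per the submitters' processing notes and the methods, reads were checked with FastQC and aligned to mm10 with STAR 2.6.0c, and DESeq2 was used for normalization. The counting tool, its strand setting and the annotation release are not given in the sources used here. The deposited signal values are read counts per gene divided by 1 DESeq2 size factor per library. They are whole multiples of 1 step per library for 100% of values (within 0.1 read), which gave back 55772659 to 72842744 reads on genes. Nothing states that the mice came from separate litters, and P values measure the spread between these livers.

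The values as log2(normalized count + 1) were, for the 15578 genes whose mean normalized count reached 10, fitted with limma 3.58.1 (empirical Bayes with a variance trend, two-sided, R 4.3.3) and adjusted by Benjamini-Hochberg over all genes tested. Fold changes on this scale understate those of genes with few reads. DESeq2 1.42.0 and edgeR 4.0.16 (quasi-likelihood) were run on the recovered reads as alternatives. DESeq2 was first run with its independent filtering set for alpha 0.05 (580 of 14827 genes called, 330 down-regulated and 250 up-regulated). The default, alpha 0.1 (567 of 15797), was adopted after that count had been seen. Either way 0 of the 10 genes were called.

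The 10 genes and the other 20 lists were chosen with earlier results of these data known. The ratios, the pan-leukocyte scaling and the second DESeq2 setting were chosen after the values were seen. Named genes were all 10 members, both receptors and, for each list, genes called by limma or DESeq2 (at most the 4 with the smallest limma P) and, where fewer than 2 were called, the 2 with the smallest limma P. Genes named beyond that rule (Clec4f, Trem2, Hmgxb3, Gas6, Pros1, Tyro3, Csf1, Lyz1, Mpo and Spp1) were chosen after their values were seen. Gene positions and exon lengths came from GENCODE M21 (24987 of 25010 identifiers matched). Of the 6 motifs, 3 (MAF, AP-1 and TATA) were at first dropped once their matches had been seen and were then restored. The fitting code was tested on simulated data. ATAC-Seq was not analysed here. The result of 1 of the other lists is not reported here.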

Additional observations from a re-analysis of the deposited data

How the results depend on the processing

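None of the 10 genes was called under any of 17 alternatives (170 pairs of gene and alternative, smallest adjusted P 0.0925 for Lyz2). Adgre1, Cd68, Lyz2 and Mertk kept their direction in all, and the other 6 changed sign in 13 pairs. With single livers left out, the log2 fold change ranged from −0.41 to 0.52 for Csf1r, −0.44 to 0.0677 for C1qa, −0.32 to 0.44 for C1qb, −0.67 to 0.0919 for C1qc, −0.10 to 0.46 for Axl and −0.66 to 0.47 for Spi1, and the median of the 10 from −0.43 to 0.45. These alternatives have fewer samples. Between 5 and 8 of the 10 genes then had groups that did not overlap, against 3 with all livers (5 without either WT liver, 8 without either LXRDKO liver). Of all genes tested, 70.9% to 73.3% did so with 1 liver left out, against 23.0% lower and 21.7% higher with all livers. The rise is thus not particular to the 10 genes. Scaling to the pan-leukocyte genes, added after seeing the data, gave 7, where 19.9% of all genes lay wholly below and 4.95% wholly above. That share is not a like background, since the reference genes varied between livers as the 10 genes did. The scaling turned Axl to −0.0764, C1qb to −0.20 and Csf1r to −0.20, with the median of all genes moved to −0.26. It is a change of reference that carries the variation of the reference genes into every gene, so its 0 called says little. The cause was not tested.

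Of the genes of the other lists, limma called 8. The count was 1 without the variance trend, 28 with DESeq2 under either filtering (the second added after seeing the data), 15 with pan-leukocyte scaling and 2 to 19 with 1 liver left out. For the latter it was 2 without either LXRDKO liver, 18 without WT replicate 1 and 19 without WT replicate 2. The cause was not tested. With the replicate number as a block, 0 of the 10 genes and 12 genes of the other lists were called. Nothing states that same-numbered mice were paired. Over all genes tested, deviations of same-numbered livers correlated at 0.0031, which cannot exclude a pairing that touched only some genes. With 2 livers per genotype the intervals of the 10 genes span up to a 4-fold range, although each gene had 192 to 3663 reads per liver.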
